A study of Mus musculus with 4 samples.

Results

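The genes described here encode subunits and partners of the Polycomb repressive complexes PRC1 and PRC2. They were set by a list of 31 gene symbols. Every probe set whose platform annotation names exactly 1 of these symbols was taken, which gave 78 probe sets for 30 genes, of 18193 genes that have a probe set of their own. The remaining gene, Rybp, is named on 2 probe sets only together with the pseudogene Rybp-ps, and no value was assigned to it. Transcripts were measured on 4 one-colour Affymetrix arrays in E14Tg2A.4 mouse embryonic stem cells, which derive from the line E14Tg2a that lacks Hprt. In 2 of the 4 samples the cells had been exposed for 1 h to 25 ng/ml BMP-2, and in the other 2 they were left untreated for that time. BMP-2 is a secreted growth factor of the bone morphogenetic protein family, whose receptors activate the transcription factors SMAD1 and SMAD5. No other genotype or agent is named in the labels, and they do not say whether replicates were separate cultures. The p-values therefore reflect only how these samples vary, which may be technical variation.

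Polycomb proteins keep developmental genes silent through 2 enzymatic activities on chromatin. PRC2 methylates histone H3 on the lysine known as H3K27 through EZH2 or EZH1, held together by EED and SUZ12, and PRC1 attaches ubiquitin to histone H2A through RNF2 (RING1B) or RING1. Every PRC1 has 1 PCGF protein: canonical complexes pair PCGF2 or BMI1 with a CBX protein, which reads methylated H3, and a PHC protein, while variant complexes carry RYBP or YAF2 instead. In embryonic stem cells these complexes sit on CpG-rich promoters of lineage genes, and many subunits come as paralogues of which a cell type uses some more than others.

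The arrays matched their labels where this could be checked. Id1, a helix-loop-helix inhibitor and early BMP target, read 9738 and 9495 on the treated arrays against 3129 and 3007 on the untreated ones (1.65 log2, limma adjusted p = 2.0e-05), and Id2 and Id3 differed by 1.76 and 1.73 log2. The inhibitory SMAD genes Smad6 and Smad7 lay 1.27 and 0.66 log2 higher and did not pass (limma adjusted p = 0.062 and 0.064). All 10 pluripotency markers examined lay between 3286 and 22527 on the 4 arrays, with summed signals of 97392 to 102471 in treated and 97171 to 102499 in untreated cells. Of 10 markers of fibroblast feeder cells 7 lay below the brightness limit for testing, a signal of 53.0 (Col1a2, Thy1 and Acta2 were above it), and their summed signals were 1414 to 1668 in treated and 1431 to 1532 in untreated cells. Untreated replicate 2 stood apart in the control probe sets of 18S ribosomal RNA, which read 3.94 to 6.11 times the highest of the other arrays, so results that lead the text are also given without it. Whether this array's 18S signal has a part in any difference was not tested.

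All 30 genes were bright enough to be tested on their brightest probe set, and 69 of the 78 probe sets passed the limit. None of the 30 genes differed between treated and untreated cells at an adjusted p of 0.05 by limma, where 4 of all 12976 tested genes (0.0308%) did. None of the 69 probe sets passed either, against 5 of all 27022 (0.0185%, all 5 higher with BMP-2). At an unadjusted p under 0.05 there were 0 of the 30 genes, against 3.21% of all genes, and 2 of the 69 probe sets, 1 each of Yaf2 and Bcor, against 3.07% of all probe sets. The adjusted p was 1.00 for each of the 30 genes. All 30 lay within 0.33 log2 of no difference, and 26 of the 30 genes lay within 0.25 log2, where 17.0% of all genes were at or beyond 0.25. For 27 of the 30 the 95% interval excluded a 1.5-fold difference in either direction, a size chosen with the values known. Of all 12976 tested genes 8307 had such an interval. The intervals of Phf1, Cbx8 and Phc3 reached past that size.

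**Figure D1:**
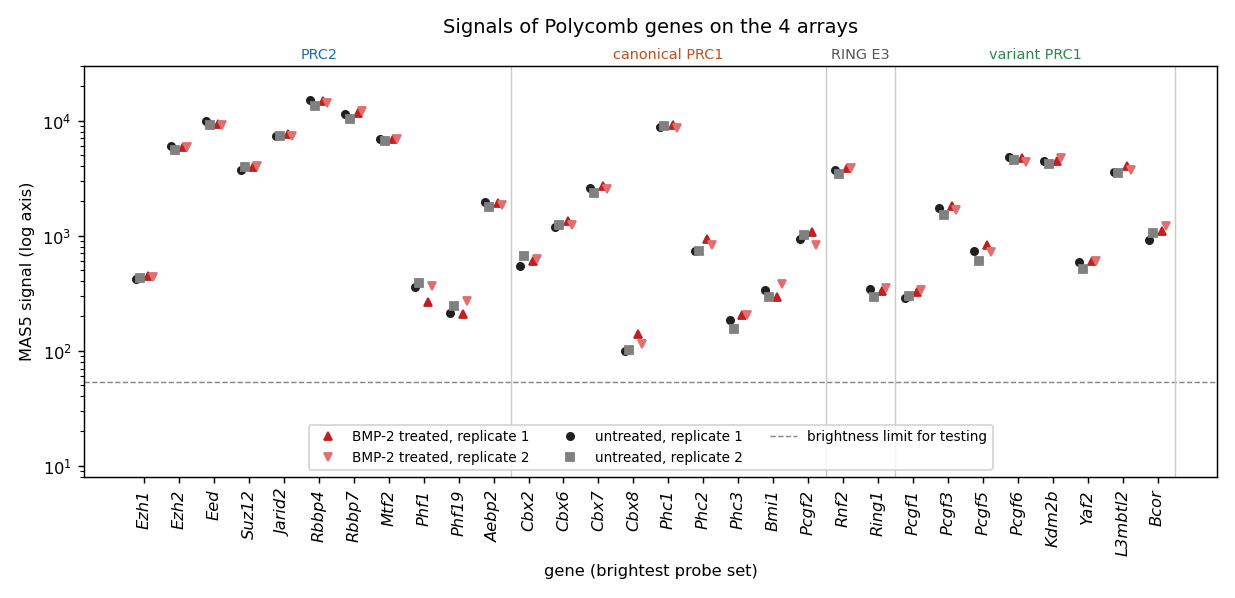
MAS5 signal (log axis) of the brightest probe set of each Polycomb gene on the 2 BMP-2 treated and 2 untreated arrays, grouped by complex, with the brightness limit for testing (53.0) as a dashed line. The 4 arrays lie close together for each gene, and every gene lies above the limit, from Cbx8 at 99.3 and 101 in untreated cells to Rbbp4 at 15067 and 13492.

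The small differences leaned to higher signals with BMP-2. Of the 30 genes 26 were higher and 4 lower (Phf1, Pcgf6, Eed and Pcgf2), where 53.0% of all tested genes were higher. The median difference of the 30 was 0.078 log2, against 0.0089 log2 over all tested genes. The 2 groups of signals were without overlap for 13 of the 30 genes (43.3%), all 13 higher with BMP-2, where 28.8% of all genes did not overlap and 16.4% did so with the higher signals in treated cells. Higher genes again numbered 26 with each array centred on its median signal (54.1% of all genes) and 25 with quantile normalization (50.4%). The count without overlap moved with the normalization. It was 12 with quantile normalization, 11 higher and 1 lower, and the share over all genes was not counted there. With each array centred on its median signal 3 of the 30 did not overlap, 2 higher and 1 lower, where 19.6% of all genes did not overlap and 11.5% did so with the higher signals in treated cells. Without untreated replicate 2, 20 of the 30 genes were higher and the median was 0.038 log2. Of all genes 54.1% were then higher, with a median of 0.016 log2. In that setting 20 of the 30 did not overlap, 14 higher and 6 lower. A group of 1 array overlaps less by construction, and the share over all genes was not counted there. No gene passed in any of 12 alternative settings, so the lean is given as a description of these arrays, in which no single gene was shown to differ.

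**Figure D2:**
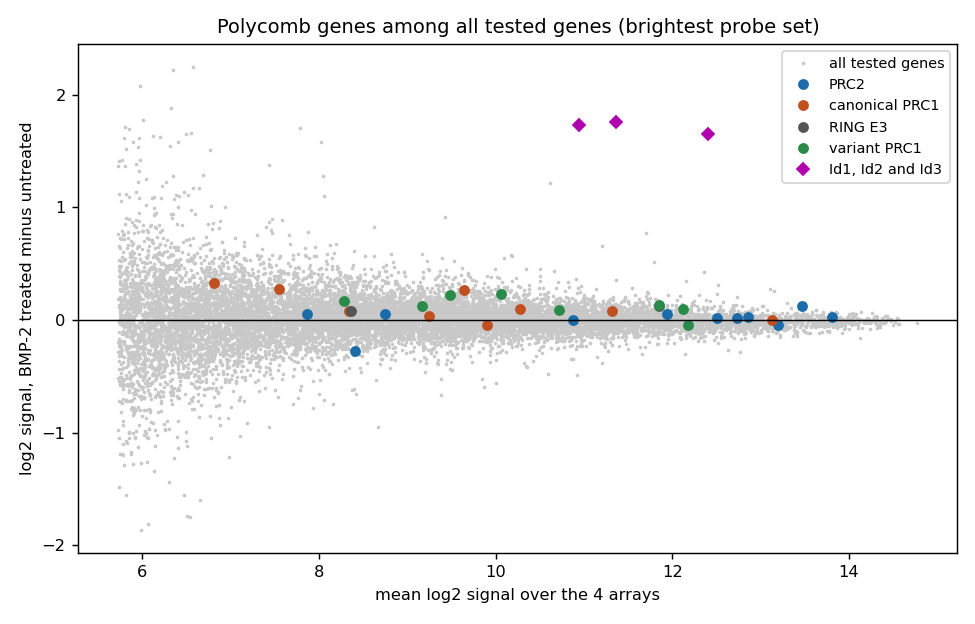
Difference in log2 signal between BMP-2 treated and untreated cells against the mean log2 signal over the 4 arrays, for all tested genes (grey), the Polycomb genes by complex, and Id1, Id2 and Id3 (diamonds). The Polycomb genes lie between -0.27 and 0.33 log2, inside the cloud of all genes, while the 3 Id genes lie at 1.65 to 1.76.

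The size of the differences was also set against the spread between replicates. The median size of the difference between the group means of the 30 genes was 0.082 log2. The 2 untreated arrays differed from each other by a median of 0.115 log2 over the same genes and the 2 treated arrays by 0.078 log2. Over all tested genes these medians were 0.092, 0.157 and 0.141 log2. Many of the 30 genes were bright, and the standard error ran from 0.069 log2 for the bright Phc1 to 0.26 for Cbx8, the dimmest. The medians were not compared at equal brightness. A mean of 2 arrays varies less than a single array does, so these sizes are set side by side and not tested.

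**Figure D3:**
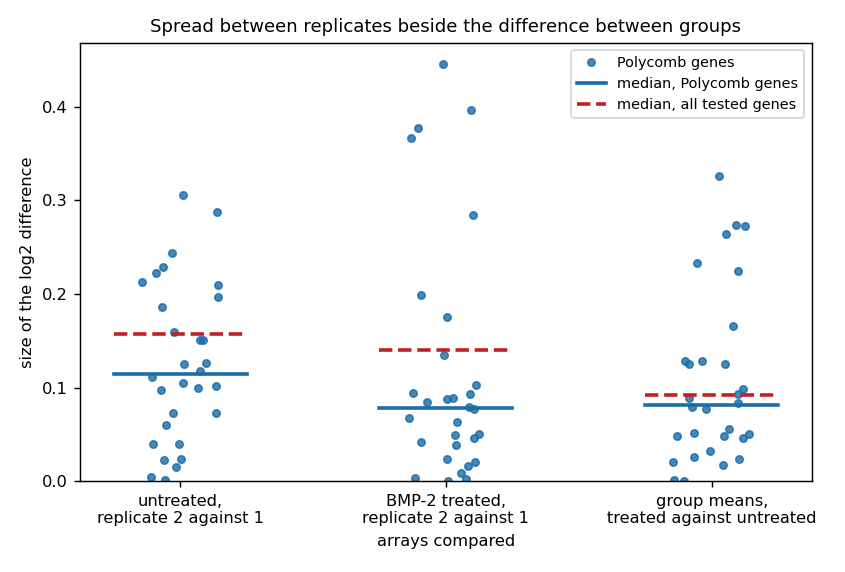
Size of the log2 difference for each Polycomb gene between the 2 untreated arrays, between the 2 treated arrays and between the group means, with medians of the Polycomb genes (solid line) and of all tested genes (dashed line). The Polycomb medians are 0.115, 0.078 and 0.082, and the treated replicates hold the widest single values.

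Of the PRC2 core, the catalytic paralogues Ezh2 and Ezh1 were both above the limit in untreated cells. Ezh2, the methyltransferase of dividing cells, read 5841 and 5854 on the treated and 5973 and 5566 on the untreated arrays by its only probe set. Ezh1, the paralogue known from resting cells, read 442 and 435 on the treated and 420.0 and 427 on the untreated arrays. The Ezh2 arrays overlapped, with untreated replicates at both ends, and the Ezh1 arrays were just separated. The differences were 0.020 log2 for Ezh2 (95% interval -0.15 to 0.19) and 0.051 log2 for Ezh1 (-0.25 to 0.36). In untreated cells the Ezh2 signal exceeded that of 96.9% of all probe sets and the brightest Ezh1 signal that of 75.4%. Of the other Ezh1 probe sets, 1 read 179.8 ± 10.2 (SD, n = 2) and 2 lay below the limit. Signals of different probe sets depend on their probes as well as on the transcript, so neither these values nor those below rank transcript amounts between genes. Within 1 gene, the brighter Eed probe set read 9559 and the dimmer one 61.7 in untreated cells.

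To show the sequence setting of this pair, the 250 bases before the annotated RefSeq start of each gene are given 5′ to 3′ on the gene's own strand (assembly GRCm38.p6, both on the minus strand), with CG dinucleotides in capitals. The Ezh2 window is chr6:47595031-47595280 and holds 23 CG, and the Ezh1 window is chr11:101226464-101226713 and holds 14.
Ezh2: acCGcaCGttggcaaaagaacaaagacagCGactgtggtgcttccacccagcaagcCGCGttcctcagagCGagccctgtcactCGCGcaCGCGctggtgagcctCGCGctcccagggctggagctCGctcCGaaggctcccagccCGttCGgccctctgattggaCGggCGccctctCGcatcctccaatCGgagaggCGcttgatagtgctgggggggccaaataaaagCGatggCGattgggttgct
Ezh1: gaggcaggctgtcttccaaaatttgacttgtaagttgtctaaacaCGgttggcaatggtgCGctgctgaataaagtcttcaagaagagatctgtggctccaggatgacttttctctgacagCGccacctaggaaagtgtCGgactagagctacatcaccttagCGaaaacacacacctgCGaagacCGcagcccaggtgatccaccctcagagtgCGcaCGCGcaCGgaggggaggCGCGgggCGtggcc

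The scaffold subunits of PRC2 were bright and close to equal in the 2 groups. Eed, which binds methylated H3 and stimulates the enzyme, read 9363 and 9114 on the treated and 9928 and 9190.4 on the untreated arrays, with overlap (-0.048 log2, interval -0.21 to 0.11). Suz12, the core subunit that the accessory proteins bind, read 3979 and 4026 against 3754 and 3947, which do not overlap (0.056 log2, -0.12 to 0.23). The 6 Suz12 probe sets did not share a direction: 3 were higher and 3 lower, from -0.13 to 0.33 log2. The histone-binding subunits Rbbp4 and Rbbp7, which also serve other chromatin complexes, gave the brightest signals of the set. Rbbp7 read 11574 and 12126 on the treated and 11346 and 10391 on the untreated arrays, separated by a small gap (0.13 log2, -0.033 to 0.28). A second Rbbp7 probe set of equal brightness gave 0.014 log2 with overlap, so the gap belongs to 1 of 2 probe sets. Rbbp4 differed by 0.026 log2, and 2 of its 4 probe sets were higher and 2 lower. The names of the brightest probe sets of Rbbp4 and Rbbp7 end in _x_at, the platform's mark for probes that can also match other transcripts.

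Among the accessory subunits, which steer PRC2 to chromatin, Jarid2, Mtf2 and Aebp2 were bright and Phf1 and Phf19 dim. Jarid2, a partner of PRC2 in stem cells, read 7619.6 and 7362 on the treated and 7366 and 7373 on the untreated arrays (0.023 log2, -0.13 to 0.18). Its 3 probe sets lay between -0.010 and 0.028 log2. Mtf2, the Polycomb-like protein PCL2, read 6859 and 6861 against 6952 and 6612 (0.017 log2, -0.14 to 0.18). The treated arrays of Mtf2 lay between the untreated ones. Its 6 probe sets lay between -0.12 and 0.017 log2, 2 higher and 4 lower. Aebp2, a zinc finger subunit, differed by 0.00046 log2 on its brightest probe set and by 0.046, 0.21 and 0.39 log2 on the other 3 tested ones. Phf1, another Polycomb-like protein, read 265 and 362 on the treated and 359 and 391 on the untreated arrays, the lowest difference of the 30 genes (-0.27 log2, -0.68 to 0.13). That difference rests on treated replicate 1, and without this array it was -0.051 log2. Phf19, the third Polycomb-like protein, read 238 ± 42.7 (SD, n = 2) in treated and 229 ± 23.8 in untreated cells (0.051 log2). In all, 9 of the 11 PRC2 genes were higher and 2 lower, with a median of 0.023 log2. Without overlap were 3 of the 11 (27.3%), all higher, against 28.8% of all genes in either direction and 16.4% higher.

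**Figure D4:**
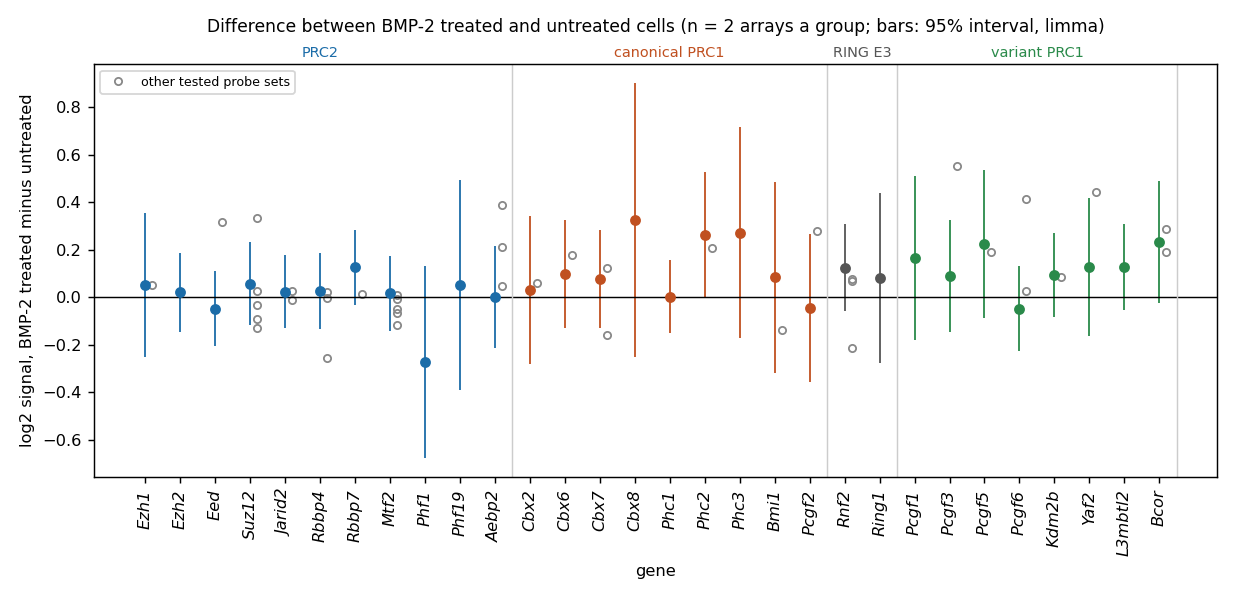
Difference in log2 signal between BMP-2 treated and untreated cells (n = 2 arrays a group) for the brightest probe set of each Polycomb gene, with its 95% interval from limma, and for the gene's other tested probe sets (open circles). All 30 intervals include 0, and the other probe sets of Suz12, Jarid2, Rbbp4, Mtf2, Rnf2 and Cbx7 fall on both sides of it.

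Both genes of the catalytic pair of PRC1 were likewise above the limit. Rnf2, the main ubiquitin ligase of PRC1 in stem cells, read 3880.5 and 3858 on the treated and 3695 and 3406 on the untreated arrays, without overlap (0.13 log2, -0.057 to 0.31). Its second bright probe set gave 0.076 log2 with overlap, and 2 dimmer ones gave -0.21 and 0.067. Ring1, its paralogue, read 329 and 347 against 346 and 295 by its only probe set, with overlap (0.080 log2, -0.28 to 0.44). In untreated cells the signals exceeded those of 94.9% of all probe sets for Rnf2 and 71.9% for Ring1.

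The 250 bases before the RefSeq start of this pair, both on the minus strand of GRCm38.p6, are given in the same way for comparison. The Rnf2 window is chr1:151500992-151501241 with 20 CG, and the Ring1 window is chr17:34024681-34024930 with 30. Of this pair Ring1 has the window with more CG, and of the pair above Ezh2.
Rnf2: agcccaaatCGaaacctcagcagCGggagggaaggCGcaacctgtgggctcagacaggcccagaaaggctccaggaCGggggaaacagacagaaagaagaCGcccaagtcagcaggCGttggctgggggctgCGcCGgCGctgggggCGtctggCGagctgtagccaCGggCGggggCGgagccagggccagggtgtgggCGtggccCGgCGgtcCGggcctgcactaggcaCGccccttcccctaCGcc
Ring1: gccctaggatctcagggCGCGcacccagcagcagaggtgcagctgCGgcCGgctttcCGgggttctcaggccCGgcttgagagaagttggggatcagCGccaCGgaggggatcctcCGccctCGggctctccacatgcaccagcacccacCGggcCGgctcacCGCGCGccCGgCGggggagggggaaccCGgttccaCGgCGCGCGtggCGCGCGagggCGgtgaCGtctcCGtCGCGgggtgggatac

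RefSeq promoter windows of 300 bases (250 before to 50 after the start) were found for 27 of the 31 genes, 39 windows in all. They held a median of 23 CG, against 7 over 32841 windows of all genes, and 33 of the 39 (84.6%) held 10 or more, against 43.5%. The hexamer GGCGCC, a GC-rich sequence that SMAD1 and SMAD5 are known to bind and its own reverse complement, was present in 10 of the 39 (25.6%) and in 11.9% of all windows. It can overlap a CG count, since it contains 1. Among those with it were Ezh2, Ring1, Bmi1, Pcgf3 and Pcgf6. The 4-base SMAD box GTCT, on either strand, was present in 79.5% and 88.0%. The TATA sequence TATAAA, on either strand, was in 1 window, of Jarid2 (2.56% against 13.6%). These are matches of letters, and none was tested against the signals. Member windows had a median GC content of 64.3%, against 52.7% for all windows, and shares in windows of like composition were not counted. Some windows of the same gene overlap one another, as for Kdm2b and Bcor.

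Canonical PRC1 genes held both the brightest and the dimmest PRC1 signals. Of the CBX readers, Cbx7, which marks canonical PRC1 of undifferentiated stem cells, read 2695 and 2542 on the treated and 2614 and 2355 on the untreated arrays, with overlap (0.077 log2, -0.13 to 0.28). Cbx6 read 1328 and 1248 against 1177 and 1227, without overlap (0.099 log2), and its second probe set, 1178 and 1166 against 1055 and 1019, was also separated (0.18 log2). Cbx2, a reader that compacts chromatin, read 614 ± 14.0 (SD, n = 2) in treated and 604 ± 90 in untreated cells (0.032 log2). Cbx8, a reader known to rise on differentiation, was the dimmest of the 30 at 138 and 114 against 99.3 and 101. That gave the highest difference of the set, 0.33 log2, with the widest interval (-0.25 to 0.90). The 2 groups of Cbx8 signals did not overlap. With 1 array left out the difference ran from 0.18 log2 without treated replicate 1 to 0.47 without treated replicate 2.

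The polyhomeotic subunits, which join canonical complexes to one another, differed among themselves in brightness. Phc1 read 9212 and 8667 on the treated and 8876 and 8971 on the untreated arrays, with the treated arrays outside the untreated ones on both sides (0.0019 log2, -0.15 to 0.16). Phc2 read 931 and 824 against 731 and 728, without overlap (0.26 log2, 1.20-fold, interval -0.00047 to 0.53 log2). This was the smallest p of the 30 genes (unadjusted p = 0.0503 and adjusted p = 1.00 by limma). The name of this probe set also ends in _x_at. The second Phc2 probe set, 627 and 561 against 519 and 508, was separated in the same direction (0.21 log2). Phc3 read 205 on both treated arrays against 185 and 156 (0.27 log2, -0.17 to 0.72).

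Of the PCGF proteins of canonical PRC1, Pcgf2 (MEL18) read 1080.4 and 821 on the treated and 940.1 and 1005 on the untreated arrays (-0.046 log2, -0.36 to 0.27). Its treated replicates lay further apart than its group means, and the dimmer Pcgf2 probe set gave 0.28 log2. Bmi1, its paralogue, read 293 and 379.9 against 339.7 and 291 (0.084 log2, -0.32 to 0.49), and its dimmer probe set gave -0.14. Over the 9 canonical genes 8 were higher and 1 lower, with a median of 0.084 log2. Of the 9, 4 (44.4%) were without overlap, all higher, against 28.8% of all genes in either direction and 16.4% higher.

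Genes of the variant PRC1 complexes were higher for 7 of 8, with a median of 0.13 log2. Of the 8, 5 (62.5%) did not overlap, all higher with BMP-2 (28.8% of all genes in either direction and 16.4% higher), and none passed the test. Over all 30 genes this count fell from 13 to 3 with median centring and was 12 with quantile normalization. Whether they differ from the other Polycomb genes was not tested. Bcor, the corepressor of the complex with PCGF1, read 1105 and 1213 on the treated and 920.2 and 1055 on the untreated arrays (0.23 log2, 1.18-fold, interval -0.026 to 0.49). All 3 Bcor probe sets were higher, the second at 617 and 584 against 485 and 498 (0.29 log2, unadjusted p = 0.0477, adjusted p = 1.00 by limma), and the third overlapped (0.19 log2). Pcgf1, which defines that complex, read 324 and 333 against 289 and 297 by its only probe set, without overlap (0.17 log2, -0.18 to 0.51). Kdm2b, whose CxxC domain binds unmethylated CpG and recruits that complex, read 4491 and 4738 against 4483 and 4169.9 (0.093 log2, -0.085 to 0.27). The gap between its lowest treated and highest untreated signal was small, and its second probe set gave 0.084 log2.

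Of the other PCGF proteins, Pcgf6, part of a complex with L3MBTL2 that acts on germ cell genes, read 4695 and 4397 on the treated and 4863 and 4538 on the untreated arrays (-0.048 log2, -0.23 to 0.13). Its other probe sets gave 0.024 and 0.42 log2, opposite to the brightest. L3mbtl2, an MBT-domain protein of that complex, read 4005 and 3731 against 3584 and 3487, without overlap (0.13 log2, -0.052 to 0.31). Pcgf3 and Pcgf5, close paralogues, overlapped on their brightest probe sets. Pcgf3 differed by 0.089 log2 (1736 ± 78.8 against 1636 ± 168, SD, n = 2) and Pcgf5 by 0.22 log2 (778 ± 75.8 against 667 ± 93.9). A dimmer Pcgf3 probe set read 63.9 and 82.3 on the treated and 41.4 and 58.9 on the untreated arrays, without overlap (0.55 log2). Its mean untreated signal of 50.1 was below the limit of 53.0. It was thus admitted by its treated signals, and no test of it is read. With probe sets averaged Pcgf3 gave 0.32 log2. Yaf2, the paralogue of Rybp that stimulates the ligase, read 607 and 598 against 588 and 517 (0.13 log2, -0.16 to 0.42). Its dimmer probe set gave the smallest p of all 69, at 351 and 321 against 266 and 229.6 (0.44 log2, interval 0.068 to 0.82, unadjusted p = 0.0251, adjusted p = 1.00 by limma).

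Where a gene had several tested probe sets, these often disagreed in sign. Of 21 such genes 11 had all tested probe sets on 1 side of 0 and 10 had them on both sides. Over the 69 probe sets 52 were higher and 17 lower, with a median of 0.056 log2 against 0.0076 over all tested probe sets. Of the 69, 26 (37.7%) did not overlap, against 28.4% of all. These counts include dim probe sets that can enter through their signals in 1 group, such as the dimmer tested one of Pcgf3. Of the 30 genes 16 kept the sign of their difference in every alternative setting in which they were tested. The other 14, with main differences between -0.048 and 0.089 log2, took the opposite sign in at least 1 setting: Ezh2, Eed, Jarid2, Rbbp4, Mtf2, Phf19, Aebp2, Cbx2, Phc1, Bmi1, Pcgf2, Ring1, Pcgf3 and Pcgf6.

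Other genes of the Polycomb system were read from 3 further lists, by their brightest probe sets. Of 34 other Polycomb genes (further subunits, partners and the deubiquitinase complex of BAP1) 30 had a probe set of their own and were tested. None of them passed, with 14 higher, 16 lower and a median of -0.0081 log2. Without overlap were 5 of the 30 (16.7%), 4 higher and 1 lower, against 28.8% of all genes. Max, a DNA-binding partner in the PCGF6 complex, had the smallest p, at 757 and 786 on the treated and 628 and 518 on the untreated arrays (0.44 log2, adjusted p = 1.00 by limma). Auts2, an activating partner of PCGF3 and PCGF5 complexes, differed by 0.20 log2, Epop, an elongin-binding subunit of PRC2, by -0.081, and Sfmbt2, an MBT-domain protein, by 0.13 on its brighter and -0.61 on its dimmer probe set.

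Of 18 genes that act against Polycomb (H3K27 demethylases, trithorax-group methyltransferases, acetyltransferases and remodellers) 17 were tested, 12 higher and 5 lower, and none passed (median 0.046 log2). Ep300, an acetyltransferase of H3K27, read 1599 and 1539 against 1364 and 1303 (0.23 log2). The H3 methyltransferase genes Kmt2c and Kmt2d differed by 0.23 and 0.21 log2 and the demethylase gene Kdm6b by 0.20 log2, each without overlap on the brightest probe set (adjusted p = 1.00 for these 4 by limma). Dimmer probe sets of Kmt2d and Kdm6b gave -0.11 and -0.35 log2, with overlap. In this list 5 of 17 (29.4%) were without overlap, close to the 28.8% of all genes.

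Of 40 developmental genes known as Polycomb targets 38 had a probe set of their own and 24 were bright enough to be tested. None of these passed, with 18 higher, 6 lower and a median of 0.11 log2. The brightness limit is taken over all 4 arrays, so a dim gene can enter through 1 group, and the 24 do not stand for all 38. Tbx5, a T-box factor of heart and forelimb, read 130 and 183 on the treated and 18.5 and 95.1 on the untreated arrays. It was admitted to the test by its treated signals, with untreated replicate 1 below the limit, so no test of it is read. Its difference was 1.88 log2, and 3.06 log2 without untreated replicate 2. A second Tbx5 probe set was below the limit. En2, a homeobox gene of the midbrain and hindbrain, read 314 and 385 against 259 and 269 (0.40 log2), and Six2 and Nkx2-5 differed by -0.55 and 0.51 log2 with overlap (adjusted p = 1.00 for these 3 by limma).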

How the data were processed

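RNA of 4 samples, 2 BMP-2 treated and 2 untreated, was hybridised to Affymetrix arrays, and samples were grouped by their titles. The deposited unit is intensity on a linear scale, 1 MAS5 signal a probe set made by the authors, per the submitters' processing notes; the version is not given in the sources used here. The mean after trimming 2% at each end was 500 on every array, read as a scaling within arrays. Median signals were 81.8 (treated) and 82.5 (untreated) for replicate 1 and 94.9 and 94.6 for replicate 2. They lay within 0.21 log2 (limit 0.3), so no normalization was added. Scanner files and detection calls were not used here.

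After 64 control probe sets were left out, probe sets with a mean log2 signal above the 40th percentile (signal 53.0) were tested, 27022 in all, on log2 signals without pseudocount, with limma 3.58.1 in R 4.3.3 (trend on signal, no replicate block, 2 residual and 7.98 prior degrees of freedom, two-sided, Benjamini-Hochberg over all tested). With 2 arrays a group precision is limited by their number, and no permutation could reach 0.05. A gene is its brightest probe set. Named were all members, the 4 smallest p-values and any call of each further list, and 5 BMP genes. Members and lists were chosen with earlier results of these data known. Alternatives were other normalization, pseudocount, filter and variance settings, the block, each array left out, and probe set means. The code was tested on simulated data. Promoters are RefSeq's, GRCm38.p6.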

Additional observations from a re-analysis of the deposited data

How the results depend on the processing

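No Polycomb gene passed in any of 12 alternative settings (0 of 30, or 0 of 29 with the 60th percentile filter), and the smallest adjusted p was 0.772, for Pcgf5 without untreated replicate 1. The median difference of the members stayed positive, from 0.038 to 0.12 log2 with 1 array left out and from 0.062 to 0.084 in the other settings. Over all probe sets, 5 passed as reported, 119 with median centring, 8 with the 60th percentile filter, 0 without the intensity trend (limma, 1023 at an unadjusted p under 0.05), 11 with the replicate block, and 16 to 141 with 1 array left out. With median centring and without either treated array, limma took the error from the trend alone. The replicate block left 0 of the 30 members past the threshold (2 at an unadjusted p under 0.05). Equal-numbered arrays deviated together at r = 0.15 over probe sets, in 2 pairs, and their median signals were also alike. Whether such arrays were processed together is not given in the labels and was not tested. Of the opposing and target genes 1 (Tbx5, admitted to the test by its treated signals) passed with median centring and 0 to 1 with an array left out. Members without overlap numbered 12 with quantile normalization (11 higher and 1 lower), where the share over all genes was not counted. They numbered 3 with median centring, where 19.6% of all genes did not overlap. With an array left out they numbered 20 to 24 (14 to 22 higher and 2 to 6 lower). A group of 1 array overlaps less by construction, and the share over all genes was not counted there. The numbers with an array left out are therefore not read as a trait of the members. With probe sets averaged within each gene the sign turned for Eed (0.14 log2), Rbbp4 (-0.053), Mtf2 (-0.035), Bmi1 (-0.028), Pcgf2 (0.12) and Pcgf6 (0.13), and with quantile normalization for Aebp2 (-0.0036). With 1 array left out the sign turned for 14 genes, whose log2 differences then ran as follows: Ezh2 -0.031 to 0.071, Eed -0.10 to 0.0074, Jarid2 -0.0014 to 0.048, Rbbp4 -0.054 to 0.11, Mtf2 -0.019 to 0.053, Phf19 -0.13 to 0.23, Aebp2 -0.075 to 0.076, Cbx2 -0.12 to 0.18, Phc1 -0.042 to 0.046, Bmi1 -0.10 to 0.27, Pcgf2 -0.24 to 0.15, Ring1 -0.035 to 0.19, Pcgf3 -0.016 to 0.19, Pcgf6 -0.098 to 0.0019. Among the larger differences, with an array left out, Rbbp7 ran from 0.062 to 0.19, Phf1 -0.50 to -0.051, Cbx7 0.0019 to 0.15, Cbx8 0.18 to 0.47, Phc2 0.18 to 0.35, Phc3 0.15 to 0.39, Rnf2 0.066 to 0.18, Pcgf5 0.081 to 0.37, Kdm2b 0.041 to 0.15, Yaf2 0.035 to 0.22, L3mbtl2 0.078 to 0.18, Bcor 0.13 to 0.33, and Rnf2 was 0.014 with probe sets averaged. The cause of these changes was not tested beyond what each setting leaves out. Array background could not be redone from summarised signals.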

Other observations

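Of the 78 Polycomb probe sets 9 lay below the brightness limit and entered no test. Some of them were separated between the groups and others overlapped. The share without overlap over all probe sets below the limit was not counted, so the separation is not read as a trait of these genes. A second Phc3 probe set read 5.48 and 6.40 on the treated and 21.0 and 20.4 on the untreated arrays, opposite in direction to the brighter one. The dimmest Aebp2 probe set read 52.9 and 51.5 against 30.5 and 31.2, the dimmest Pcgf5 probe set 40.8 and 37.8 against 28.0 and 15.5, and the dimmest Rnf2 probe set 21.3 and 22.6 against 17.0 and 16.0, all higher in treated cells. A second Cbx8 probe set read 8.36 and 3.78 against 38.6 and 3.55, with overlap. MAS5 signals this low are noisy, and these probe sets were chosen after their values were seen.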
